A study of Mus musculus with 59 samples.

Results

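The 10 immediate early response genes, the AP-1 subunits Fos, Fosb, Jun and Junb, the zinc finger factors Egr1, Egr2 and Klf6, the short-lived response proteins Ier2 and Ier3, and the phosphatase Dusp1, were followed over 59 mouse pluripotent stem cell lines. The genes were chosen by name with earlier results of these data known. The shares of all genes given beside their counts are therefore a description and no independent test of the set. Each gene was read from its brightest probe set among the 14 that carry the 10 names, out of 11807 genes and 22626 probe sets on the array. RNA was measured once per line, so replicates are separate clones. The induced pluripotent stem cell (iPSC) clones made by reprogramming body cells comprised 6 clones from mouse embryonic fibroblasts (MEFs) of chimera 1 and 42 clones of other origin, 13 from mouse 1, 14 from mouse 2 and 15 from chimera 2. By origin label the 42 were 11 HSC, 11 GMP and 9 granulocyte clones (blood-derived) and 11 clones labelled PF or TTF, taken here as 1 fibroblast class, with all 6 TTF clones from chimera 2. The 6 NT-ESC subclones came from cloned blastocysts, 3 from the clone Adeno-2, 1 from iPSC-7 and 2 from iPSC-15, and Adeno-2 itself is 1 Adeno-iPSC clone of fetal liver origin. The reference lines were 4 clones of targeted KH2 embryonic stem cells (ESC). Per the series' design text the iPSC came from chimeric mice made with ESC that carry an inducible cassette of myc, Klf4, Oct4 and Sox2. The labels give no cassette for Adeno-2, and no age, sex or dose of inducer for any line. The ESC are clones of 1 targeted line. All groups were grown with LIF and 15% FBS over irradiated MEF feeders, and before lysis the trypsinized cells were left to settle for 45 minutes so that feeders could be removed.

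Immediate early genes are transcribed within minutes of a growth factor, serum or stress signal without new protein synthesis. Signals through the MAP kinases reach SRF with its Ets partners at CArG boxes and CREB at cAMP response elements, and the products include the AP-1 and Egr factors that carry the response on, while Dusp1 dephosphorylates the MAP kinases and so limits it. The transcripts are short-lived and also respond to handling of cells such as trypsinisation, which every line here underwent.

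Values are log2 intensities as deposited, centred near 0 on each array, so a value below 0 is dimmer than the array's mean; levels of different genes rest on different probes and are not set against each other. Array totals carry no depth, and the number of arrays limits the precision. Sox2 and Nanog read 3.73 or more in every line, and Pou5f1 3.78 or more except in iPSC-32 (0.28), a PF clone of mouse 2. The arrays of NT-7, NT-8 and NT-9 stood apart, with a mean correlation to the ESC and iPSC arrays of 0.889 to 0.940 against 0.982 to 0.993 in the other 56 and an array SD of 2.35 to 2.47 against 2.54 to 2.64, so results that rest on them are given with and without them. The blood marker list averaged -1.94 in MEF-derived iPSC, -1.83 in other iPSC, -1.73 in NT-ESC and -1.91 in ESC over 16 genes.

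Sequence before the transcription start was at hand from RefSeq (GRCm38.p6) for 8 of the 10 genes, and the stretches below are shown because they hold the letters through which signal-dependent factors are known to act. Capitals mark the cAMP response element core TGACG on either strand and, in Egr2, also the CArG box.
Fos, chr12:85473690-85473889, plus strand: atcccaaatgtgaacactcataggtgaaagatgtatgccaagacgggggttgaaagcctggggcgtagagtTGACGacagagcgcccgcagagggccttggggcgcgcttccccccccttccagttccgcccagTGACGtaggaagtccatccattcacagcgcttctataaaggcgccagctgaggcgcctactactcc
Junb, chr8:84978749-84978948, minus strand: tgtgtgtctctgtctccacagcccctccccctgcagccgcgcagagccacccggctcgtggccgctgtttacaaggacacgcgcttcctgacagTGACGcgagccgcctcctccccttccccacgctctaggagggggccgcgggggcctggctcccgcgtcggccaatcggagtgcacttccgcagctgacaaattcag
Dusp1, chr17:26508473-26508672, minus strand: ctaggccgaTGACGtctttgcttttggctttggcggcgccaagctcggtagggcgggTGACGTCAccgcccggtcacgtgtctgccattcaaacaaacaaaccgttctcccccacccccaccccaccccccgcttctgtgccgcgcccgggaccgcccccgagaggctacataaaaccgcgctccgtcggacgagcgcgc
Egr2, chr10:67537789-67537818, plus strand: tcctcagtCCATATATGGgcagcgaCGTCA
Fosb, chr7:19310086-19310115, minus strand: gagttgcgggTGACGcaagcgcgggggcgg
The Fos, Junb and Dusp1 stretches are the 200 bases before the annotated start. The Egr2 and Fosb stretches are 30 bases each, since those starts lie inside the annotated span of the gene. Searched over 250 bases before each start and on both strands, TGACG occurred in 5 of the 8 genes (Fos, Fosb, Junb, Egr2 and Dusp1), compared with 19.8% of 27025 genes. The full palindrome TGACGTCA, which contains that core, occurred in Dusp1 and in 1.77% of genes. The CArG box occurred in Egr2 and in 1.62% of genes, the Ets letters CCGGAA in Egr2 and in 13.6%, the Egr letters GCGNGGGCG in Fosb and in 5.33%, and the AP-1 letters TGANTCA in 0 of 8 and 7.82%. Of the genes with several annotated starts, any start counted, which applied to Egr2 with its 5 starts. These are matches of letters and not sites of binding.

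Against ESC, the iPSC of blood, PF and TTF origin had lower levels of most of these genes. In the 42 clones 9 of the 10 genes were lower (limma, Benjamini-Hochberg adjusted over all genes), where 9.06% of all genes were called lower and 19.3% were called in either direction. Higher calls made up the other 10.2%. The remaining gene, Ier2, differed by -0.11 (SE 0.10, adjusted p = 0.480). For Fos, Fosb, Jun, Junb, Egr1, Egr2, Dusp1 and Klf6 each of the 42 clones lay below the lowest ESC clone, an arrangement found in 0.381% of all genes. Ranges that did not overlap in either direction were found in 0.703%. For Junb, Jun and Klf6 the gap was narrow: the highest clone read -0.72, 2.14 and 4.61 and the lowest ESC -0.71, 2.15 and 4.62 on the log2 scale. In bulk RNA, fewer cells with a transcript and less of it per cell cannot be told apart.

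**Figure D1:**
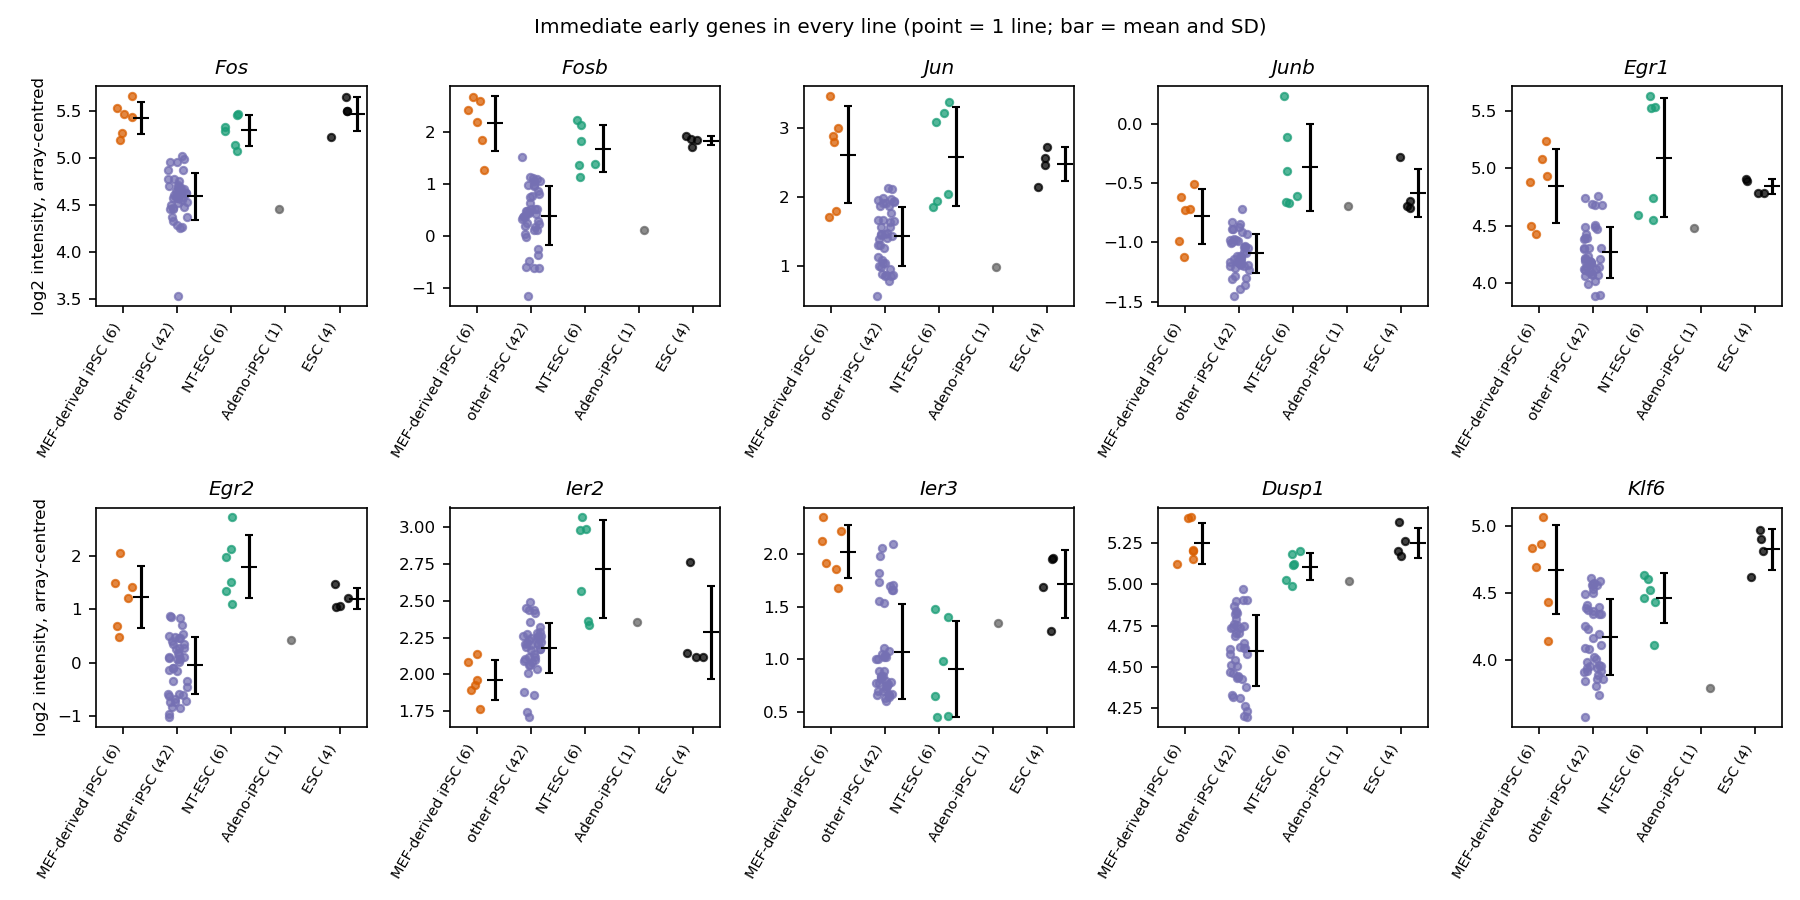
Log2 intensity (vertical axis, array-centred) of each gene in every line, with 1 point per line and a bar for the mean and SD; the horizontal axis gives the class and its number of lines. The 42 other iPSC clones lie below all 4 ESC clones in 8 of the 10 panels. The 6 MEF-derived clones lie among or around the ESC, and some reach into the range of the other iPSC in every panel but Fos and Dusp1.

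Among the AP-1 subunits, Fos read between 3.54 and 5.02 (median 4.60) in the 42 other iPSC clones and 5.22, 5.64, 5.50 and 5.49 in ESC-1 to ESC-4. The groups did not overlap, and the log2 difference of Fos was -0.87 (SE 0.13, adjusted p = 2.99e-06). Fosb, the Fos relative that can also be spliced to a shorter stable form, read between -1.14 and 1.53 (median 0.43) in other iPSC and 1.84, 1.92, 1.86 and 1.71 in the ESC clones, a difference of -1.44 (SE 0.28, adjusted p = 2.08e-04). Its 42 values spread over a range wider than the shift itself, while the 4 ESC lay close together. Jun, the partner of Fos in the AP-1 dimer, read between 0.58 and 2.14 (median 1.46) in other iPSC and 2.47, 2.57, 2.72 and 2.15 in ESC, a difference of -1.04 (SE 0.21, adjusted p = 3.79e-04). Junb, an AP-1 subunit that often restrains Jun, read between -1.45 and -0.72 (median -1.11) in other iPSC and -0.28, -0.65, -0.71 and -0.70 in ESC, a difference of -0.51 (SE 0.09, adjusted p = 3.80e-05). ESC-1 was the high ESC clone for Junb.

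The zinc finger factors were lower as well. Egr1, a direct ERK-responsive factor, read between 3.89 and 4.76 (median 4.20) in other iPSC and 4.91, 4.89, 4.79 and 4.79 in ESC, a difference of -0.58 (SE 0.11, adjusted p = 2.24e-04). Egr2, known also for its part in hindbrain patterning and myelination, read between -1.02 and 0.87 (median 0.07) in other iPSC and 1.48, 1.21, 1.07 and 1.05 in ESC, a difference of -1.25 (SE 0.26, adjusted p = 6.21e-04). Klf6, a Krüppel-like factor, read between 3.58 and 4.61 (median 4.14) in other iPSC and 4.97, 4.90, 4.81 and 4.62 in ESC, a difference of -0.65 (SE 0.14, adjusted p = 6.98e-04). Further probe sets of Jun, Egr2 and Klf6 were lower too, with differences of -0.68 for Jun (adjusted p = 0.0322), -1.12 for Egr2 (adjusted p = 0.0112), and -1.13 and -0.93 for Klf6 (adjusted p = 1.63e-04 and 2.92e-04), adjusted over all probe sets.

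Dusp1, the feedback phosphatase, read between 4.19 and 4.97 (median 4.61) in other iPSC and 5.17, 5.38, 5.26 and 5.20 in ESC. Its difference of -0.65 (SE 0.11, adjusted p = 2.24e-05) came with a within-origin-group SD of 0.09, the smallest of the 10 genes on that measure. Ier3, a stress- and NF-kB-inducible survival factor, read between 0.60 and 2.10 (median 0.86) in other iPSC and 1.27, 1.95, 1.97 and 1.68 in ESC. Its groups overlapped, and its difference of -0.65 (SE 0.23, adjusted p = 0.0363) did not pass in 6 of the alternatives, among them animal as a random block (adjusted p = 0.0746) and the fit without ESC-3 (adjusted p = 0.182). Ier2, a nuclear response protein, read between 1.71 and 2.49 (median 2.21) in other iPSC and 2.76, 2.12, 2.15 and 2.12 in ESC. Without ESC-1, the high clone, its difference was 0.05. With animal as a random block 8 of the 10 genes were lower, where 10.4% of all genes were called in either direction.

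Of 34 measured genes of a wider list, 11 were lower and 1 higher in the 42 clones, where 9.06% of all genes were lower and 10.2% higher, with a median log2 difference of -0.20 over the list and 0.03 over all genes. Lower were the stress sensor Gadd45b (-1.23), the small Maf factor Maff (-0.87), the AP-1 partner Atf3 (-0.85) and the NF-kB inhibitor Nfkbia (-0.72). Myc was higher by 0.96, and myc is also a gene of the reprogramming cassette. The other cassette genes, Klf4 (-0.35), Pou5f1, which encodes Oct4 (-0.27), and Sox2 (-0.13), did not pass. The part of the cassette was not tested. Of 12 measured upstream regulators, the kinase gene Map2k2 (0.47), the SRF coactivator gene Mrtfa (0.31) and Creb1 (0.29) were higher and the kinase gene Mapk9 (-0.28) was lower. Markers of fibroblasts and feeder cells moved the opposite way to the 10 genes: 8 of 23 were higher and 0 lower, and the mean level of the list was 0.93 to 2.83 in other iPSC and 0.52 to 1.76 in ESC. The mean of 7 heat shock genes, which respond to handling, was 4.18 to 4.65 in other iPSC and 4.29 to 4.48 in ESC, and 1 of the 7 was higher, Hsph1 by 0.33 (adjusted p = 0.00178), which is named after its value was seen. The part of either list in the result was not tested.

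The iPSC from MEFs of chimera 1 read near the ESC on average, though iPSC-5 and iPSC-6 read below every ESC clone in several genes. None of the 10 genes passed, and limma called 0 genes of 11807 (0% of genes), with 997 at an unadjusted p under 0.05, Ier2 alone among the 10. Fos read 5.47, 5.66, 5.53, 5.43, 5.19 and 5.26 in iPSC-1 to iPSC-6, within the span of the ESC clones apart from iPSC-2 above and iPSC-5 below. Its difference to ESC was -0.04 (95% interval -0.28 to 0.20). Egr1 differed by 0.00 (95% interval -0.32 to 0.33), Dusp1 by -0.0048 (SE 0.08) and Egr2 by 0.03 (95% interval -0.54 to 0.60). These intervals leave room for differences of up to 0.60 in Egr2, and for Jun the interval was -0.56 to 0.82. The widest differences were 0.33 for Fosb (SE 0.23, adjusted p = 0.722) and -0.32 for Ier2 (SE 0.13, adjusted p = 0.528).

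Within the MEF-derived clones, iPSC-5 and iPSC-6 were the low pair. Jun read 2.80, 3.46, 2.89 and 3.00 in iPSC-1 to iPSC-4, and 1.80 and 1.71 in iPSC-5 and iPSC-6. Egr2 read 1.42, 2.06, 1.21 and 1.50 in the same 4 clones and 0.70 and 0.48 in the other two. These 2 clones also had the lowest values of their group in Fos, Fosb, Junb, Egr1, Ier3, Dusp1 and Klf6, and the highest in Ier2. In Jun, Junb, Egr1, Egr2 and Klf6 both lay below every ESC clone and within the range of the other iPSC. Of the 42 other iPSC clones, 12 in Jun, 22 in Junb, 9 in Egr1, 7 in Egr2 and 21 in Klf6 were at or above the lowest MEF-derived clone. iPSC-2 was the highest of the 6 in all genes but Ier2.

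Set against the 42 clones of other origin, the MEF-derived clones were higher in 9 of the 10 genes and lower in Ier2, where 18.9% of all genes were called higher and 18.8% lower, 37.7% in all. This comparison shares its 42 clones with that of other iPSC and ESC. The differences were 0.83 for Fos (SE 0.10), 1.77 for Fosb (SE 0.24), 1.18 for Jun (SE 0.20) and 0.31 for Junb (SE 0.07). They were 0.58 for Egr1, 1.28 for Egr2, 0.50 for Klf6, 0.95 for Ier3 and 0.65 for Dusp1, with adjusted p-values of the 9 genes from 1.26e-08 (Fos) to 8.49e-04 (Klf6). Ier2 differed by -0.22 (SE 0.07, adjusted p = 0.0145), and without iPSC-4 by -0.18 (adjusted p = 0.0731). Only Fos and Dusp1 had all 6 clones above all 42, compared with 1.04% of all genes, and 1.69% had no overlap in either direction. The fibroblast and feeder list had 7 of 23 markers lower and 1 higher, and 3 of 7 heat shock genes were lower. Their part was not tested. In the wider list 13 of 34 genes were higher, led by Btg2 (1.26), Gadd45b (1.23), Atf3 (0.86) and Plk2 (0.78), and 2 were lower, Myc (-1.25) and Gadd45a (-0.24). Of the 12 upstream regulators 2 were higher and 5 lower, Creb1 (-0.54) and Map2k2 (-0.51) the lowest of them. All MEF-derived clones came from chimera 1 and none of the 42 did, so origin and animal cannot be told apart.

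**Figure D2:**
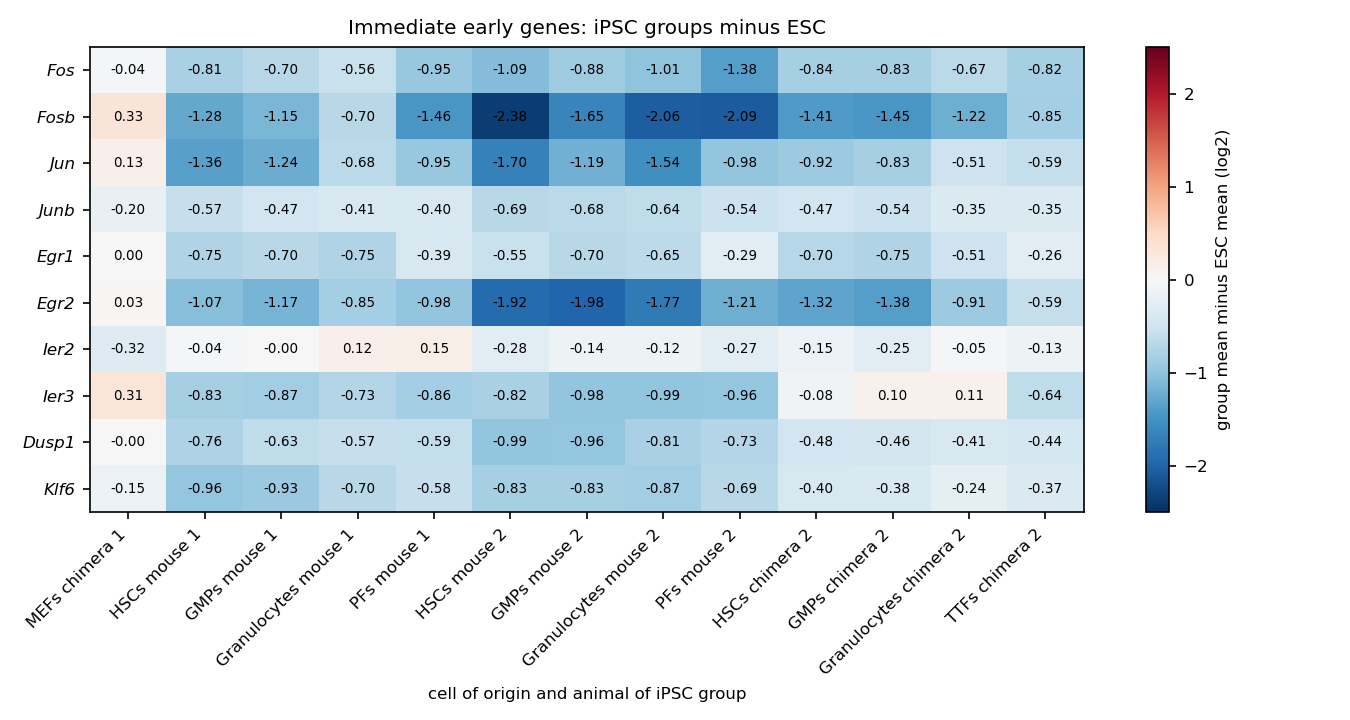
Mean of each iPSC group minus the ESC mean (log2, colour and printed value) for each gene (rows) and each origin and animal (columns). The MEF column lies between -0.32 (Ier2) and 0.33 (Fosb), and the 3 blood-derived columns of mouse 2 hold the lowest Egr2 values.

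Ordered by group mean over the 14 ESC and iPSC groups, MEF-derived iPSC and ESC took the first 2 places for Fos, Fosb, Jun, Junb, Egr1, Egr2, Dusp1 and Klf6. For Fos the next group was the granulocyte clones of mouse 1 at 4.90 ± 0.10 (SD, n = 3), 0.52 below the MEF-derived mean, and the lowest the PF clones of mouse 2 at 4.08 ± 0.48 (SD, n = 3). The pooled within-group SD of Fos was 0.18, and 2 of its 13 neighbouring steps exceeded it, so most neighbours in the order did not differ beyond their spread. Dusp1 had 4 such steps against a pooled SD of 0.09, while Ier2 and Klf6 had none. Ier2 was lowest in the MEF-derived group (1.96), with ESC in place 3 (2.29). For Ier3 the MEF-derived group was first (2.02), 3 blood-derived groups of chimera 2 stood near ESC (1.72, place 4), and the widest step, 0.55, lay between the HSC clones and the TTF clones of chimera 2.

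Among the 42 clones, the cell of origin (fibroblast, HSC, GMP or granulocyte) was tested with a limma F test that held animal as a term. It called 5 of the 10 genes (Fos, Jun, Egr1, Egr2 and Dusp1), where 38.0% of all genes were called. Klf6 was not called with its brightest probe set, but its further probe sets passed (adjusted p = 0.00125 and 7.73e-04 over all probe sets). The count was 9 (all but Ier2) without iPSC-32, the clone with low Pou5f1, and 2 (Egr1 and Egr2) with 1 mean per animal and cell type. Blood-derived clones differed from fibroblast-derived clones in 7 of the 10 genes, 2 higher and 5 lower, where 28.1% of all genes were called higher and 21.6% lower, 49.7% in all. With 1 mean per animal and cell type 3 passed, Egr1, Egr2 and Fos. With mouse 1 left out 4 passed (Egr1, Egr2, Ier3 and Jun), and with mouse 2 left out 3 (Egr1, Egr2 and Ier3). For the alternative fits of both tests the share of all genes called is not given here. From these counts alone, a change in the 10 genes cannot be told apart from a change over all genes.

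Egr1 was lower in blood-derived clones, with the same sign in each animal. Egr1 averaged 4.11 ± 0.13 in 11 blood-derived and 4.45 ± 0.03 in 2 fibroblast-derived clones of mouse 1 (SD). In mouse 2 Egr1 averaged 4.21 ± 0.11 in 11 blood-derived and 4.55 ± 0.29 in 3 fibroblast-derived clones. In chimera 2 it averaged 4.19 ± 0.16 in 9 blood-derived and 4.58 ± 0.14 in 6 fibroblast-derived clones. The fitted log2 difference was -0.37 (SE 0.05, adjusted p = 1.87e-07). Egr2 followed with -0.50 (SE 0.11, adjusted p = 3.11e-04), although in mouse 1 its difference was -0.06, against -0.69 in mouse 2 and -0.61 in chimera 2. Jun differed by -0.26, Junb by -0.10 and Dusp1 by -0.08, and Fos was higher in blood-derived clones by 0.20 (SE 0.07, adjusted p = 0.0123). For Jun and Klf6 the result depended on the probe set. A further Jun probe set differed by -0.80 (SE 0.08, limma, adjusted p = 1.03e-10 over all probe sets). Klf6 differed by -0.10 with its brightest probe set (adjusted p = 0.156) and did not pass. Its further probe sets differed by -0.34 and -0.24 and passed (adjusted p = 7.50e-04 and 0.00341). Without iPSC-32 the Fos difference was 0.11 (adjusted p = 0.0722) and no longer passed.

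**Figure D3:**
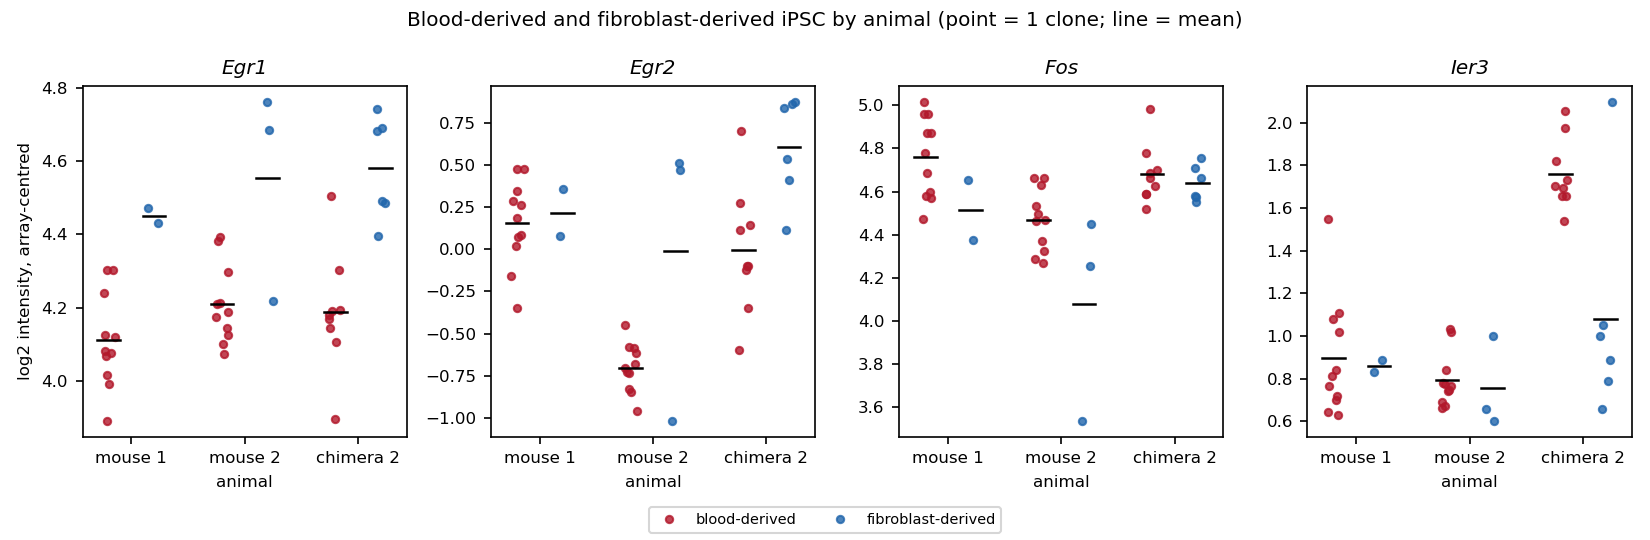
Log2 intensity (vertical axis) of 4 genes in blood-derived and fibroblast-derived iPSC clones of each animal (horizontal axis), with 1 point per clone and a line at the mean. Egr1 is lower in blood-derived clones of all 3 animals, and Ier3 is higher in blood-derived clones of chimera 2.

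Among the 10 genes the contrast between blood and fibroblast origin ranged most widely over animals in Fosb. Its difference was 0.39 in mouse 1, 0.06 in mouse 2 and -0.51 in chimera 2, which did not pass (limma interaction, adjusted p = 0.0654). Ier3 averaged 1.76 ± 0.16 in 9 blood-derived and 1.08 ± 0.52 in 6 TTF-derived clones of chimera 2 (SD), a difference of 0.68. The difference was 0.04 in mouse 1 and 0.04 in mouse 2. The test of this variation over animals passed for Ier3 alone of the 10 (limma interaction, adjusted p = 0.0322), where 20.7% of all genes passed. The fibroblast class was PF in mouse 1 and mouse 2 and TTF in chimera 2. Variation over animals and a difference between PF and TTF origin therefore cannot be told apart in this test. The TTF clone iPSC-46 read 2.10 in Ier3, and the other 5 TTF clones read 0.66 to 1.05. Without iPSC-32 3 of the 10 genes passed, Egr2, Fosb and Klf6, and Ier3 did not (adjusted p = 0.0555). The share of all genes in that fit is not given here. In the wider list 6 of 34 genes were higher in blood-derived clones, Mcl1 (0.38) the most, and 14 lower, beside the 28.1% and 21.6% of all genes, led by Ptgs2 (-0.86), Fosl1 (-0.75), Myc (-0.49) and Egr4 (-0.45). Of the 12 upstream regulators 4 were higher and 5 lower, Elk3 (-0.48), an Ets partner of SRF, the lowest. All but 1 of the 23 fibroblast and feeder markers were also lower in blood-derived clones, with a median difference of -0.89, and 8 of 9 pluripotency markers were higher. Their part in the result was not tested.

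Within the blood lineage, no gene passed between granulocyte and HSC origin: limma called 0 genes in all (0%), with 390 at an unadjusted p under 0.05. The 10 differences ran from 0.02 (Egr1) to 0.43 (Jun, SE 0.12), with Fosb at 0.36 (SE 0.16) and Dusp1 at 0.15 (SE 0.04), each with an adjusted p = 1.00. The share of all genes with a positive difference is not given here, and the 10 genes vary together. Their common sign is therefore no result about the set. Egr1 differed by 0.02 (95% interval -0.11 to 0.15).

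Animals differed in 9 of the 10 genes, the exception being Egr1, where 44.9% of all genes were called. Clones of mouse 2 were the lowest in Fosb, with a mean of -0.20 ± 0.44 (SD, n = 14), against 0.70 ± 0.38 in mouse 1 (n = 13) and 0.68 ± 0.32 in chimera 2 (n = 15). They were also lowest in Egr2, at -0.55 ± 0.47, against 0.16 ± 0.24 in mouse 1 and 0.24 ± 0.46 in chimera 2. Klf6 stood higher in chimera 2, at 4.47 ± 0.10, than in mouse 1 (3.99 ± 0.17) and mouse 2 (4.02 ± 0.22). Dusp1 averaged 4.60 ± 0.10 in mouse 1, 4.37 ± 0.12 in mouse 2 and 4.81 ± 0.09 in chimera 2. The fitted range over animals was 0.92 for Fosb, 0.76 for Ier3, 0.75 for Egr2, 0.62 for Jun and 0.10 for Egr1. No source used here names a hybridisation batch, so animal and any such batch cannot be told apart.

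The genes also varied together from clone to clone. After each clone's value was set against the mean of its own origin group, the median Pearson r over the 45 pairs of genes was 0.47 across the 48 iPSC clones (median Spearman rho 0.44), and -0.001 over all gene pairs. An r of 0.5 or more was found in 21 of the 45 pairs (46.7%), compared with 2.46% of all pairs of genes. These r share arrays and culture conditions and are given as a description. Without the 2 clones farthest out in each pair the median was 0.42, and without iPSC-32 it was 0.48. Within animals the median r was 0.85 in chimera 1, 0.50 in mouse 1, 0.26 in mouse 2 and 0.47 in chimera 2. No value over all gene pairs was computed within animals, so these medians have no background beside them. That of chimera 1 comes from 6 clones of 1 origin group, with iPSC-5 and iPSC-6 low and iPSC-2 high in most of the genes.

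**Figure D4:**
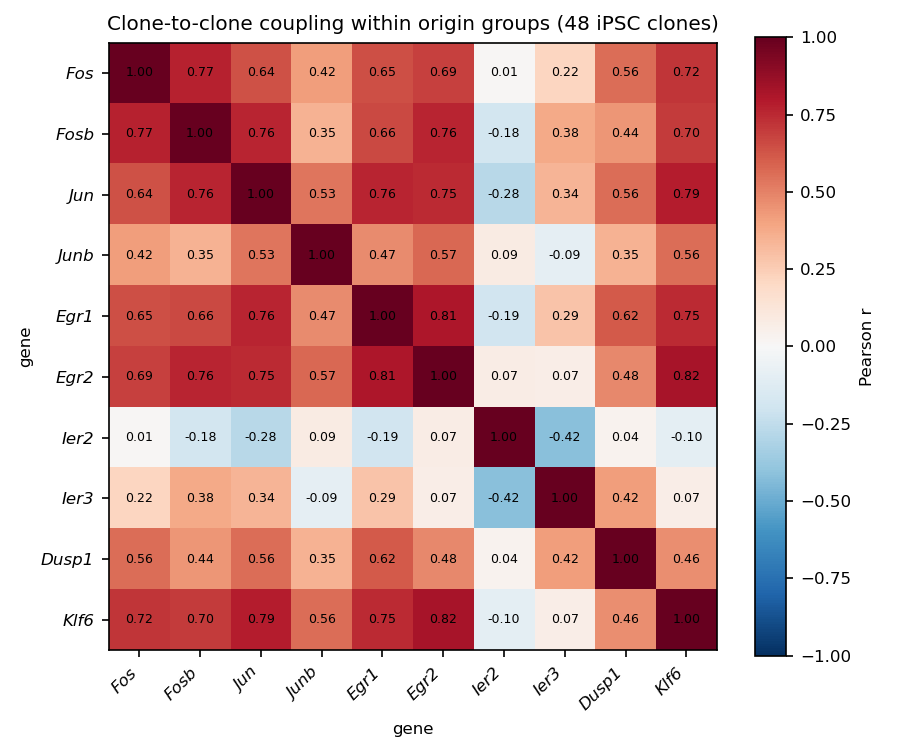
Pearson r (colour and printed value) between every pair of the 10 genes over 48 iPSC clones, after subtraction of origin-group means. The genes Fos, Fosb, Jun, Egr1, Egr2 and Klf6 form the dark block, with the highest r of 0.82 between Egr2 and Klf6, and the Ier2 row lies between -0.42 and 0.09.

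Over all 48 clones Ier2 and Ier3 had no r of 0.5 or more to any other gene. Ier3 reached r = 0.57 with Fosb once iPSC-32 was left out, against 0.38 with it. Within chimera 1 Ier3 had r from 0.73 (with Klf6) to 0.96 (with Egr2) to every gene but Ier2. Within mouse 2 the r of Ier3 ran the other way, from -0.79 (with Jun) to -0.0045 (with Ier2). It ran from -0.40 (with Junb) to 0.74 (with Fosb) in mouse 1 and from -0.78 (with Ier2) to 0.64 (with Jun) in chimera 2. The r of Ier2 ran from -0.01 (with Junb) to 0.83 (with Egr2) in mouse 1 and from -0.74 (with Jun) to -0.39 (with Dusp1) in chimera 1. Over all 48 clones Ier2 had r from -0.42 (with Ier3) to 0.09 (with Junb). Egr2 and Klf6 had the highest r, 0.82, followed by Egr1 and Egr2 with 0.81. The spread within groups was wide for Egr2 (SD 0.38, above 98.4% of genes), Fosb (0.34, above 97.4%) and Jun (0.34, above 97.3%), and narrow for Dusp1 (0.09, above 8.55%).

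Slopes on 2 anchor genes set the same coupling beside every gene on the array. They rest on the same 48 clones as the pairwise r and are no independent support for it. Per unit of Egr1, with origin group as a term, 7 of the other 9 genes had a positive slope that passed, all but Ier2 and Ier3, where 6.17% of all genes did so, 5.56% had a negative slope that passed, and 11.7% were called in all. The slopes were 1.71 for Egr2 (SE 0.21, adjusted p = 2.48e-06), 1.46 for Jun (SE 0.20, adjusted p = 1.86e-05), 1.28 for Fosb, 0.79 for Klf6, 0.65 for Fos, 0.38 for Junb and 0.31 for Dusp1. The count was again 7 without iPSC-32 but 3 (Egr2, Fos and Klf6) without the MEF-derived clones of chimera 1, where 0.847% of genes passed. Per unit of Fos, 6 of 9 had a positive slope that passed (Fosb 1.47, Egr2 1.43, Jun 1.21, Klf6 0.75, Egr1 0.64 and Dusp1 0.27), where 1.65% of all genes did so, 1.43% had a negative slope and 3.08% were called in all. That count rested on 1 clone, iPSC-32, which read 3.54 in Fos. Without it only Fosb passed (slope 1.36, adjusted p = 0.0310), where 0.0847% of genes did. Without mouse 2 Fosb and Egr1 passed. The share of all genes is not given here for that fit, nor for slopes on Egr1 without iPSC-32.

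In the wider list a positive slope passed in 10 of 34 genes on Egr1, where 6.17% of all genes did, and in 3 on Fos, where 1.65% did. Without iPSC-32 10 genes of the whole array passed on Fos. The 8 genes outside the 10 whose clone-to-clone pattern was most like the mean of the 10 were Arhgap18 (r = 0.85), Atf3 (0.81), Cxcl10 (0.81), Pou6f1 (0.81), Gabarapl1 (0.79), Oasl2 (0.78), Krt18 (0.78) and Igfbp3 (0.78), over 48 clones. Each stayed at 0.70 or more without iPSC-32. The mean of the 23 fibroblast and feeder markers had r = 0.20 and rho = -0.13 with the mean of the 10 genes, and the 7 heat shock genes r = -0.38 and rho = -0.19. Without iPSC-32 these r were 0.32 and -0.18. On Egr1, 5 of the 23 fibroblast and feeder markers had a positive slope that passed. Their part in the coupling was not tested.

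Of the lines made by nuclear transfer, each was set against its own donor, and Fosb alone was called. In all 6 subclones Fos, Fosb, Jun, Junb, Egr1, Egr2, Dusp1 and Klf6 lay above the own donor, an arrangement found in 21.6% of all genes. Ier2 lay above the donor in 5 of 6 and Ier3 in 3 of 6, and for Klf6 the direction in NT-7, NT-8 and NT-9 depended on the probe set. With the donor line as a block limma called 1 of the 10 genes, Fosb, higher by 1.36 (SE 0.15, adjusted p = 0.0261), where 0.0169% of all genes were called higher, 0.0423% lower and 0.0593% in all, and 4824 genes and 9 of the 10 had an unadjusted p under 0.05. Fosb read 1.38, 1.39 and 1.13 in NT-4, NT-5 and NT-6, against 0.13 in Adeno-2. It read 1.82 in NT-7 against 0.26 in iPSC-7, and 2.23 and 2.13 in NT-8 and NT-9 against 0.76 in iPSC-15. Every NT-ESC thus exceeded every donor in Fosb.

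Fos read 5.33, 5.47 and 5.13 in NT-4, NT-5 and NT-6, against 4.46 in Adeno-2. It read 5.07 in NT-7 against 4.47 in iPSC-7, and 5.28 and 5.45 in NT-8 and NT-9 against 4.78 in iPSC-15. The Fos difference of 0.69 (SE 0.15, adjusted p = 0.0610) did not pass, nor did Jun at 1.44 (SE 0.21, adjusted p = 0.0600) or Egr2 at 1.65 (SE 0.29, adjusted p = 0.0610). In the Adeno-2 family alone the donor is 1 sample with no spread of its own, so sizes of difference are given without a test. They describe these 4 lines only. The mean difference to the donor was 0.85 for Fos, 1.17 for Fosb, 0.95 for Jun, 0.90 for Egr2, 0.77 for Klf6 and -0.83 for Ier3. Single subclones differed by -0.02 to 0.21 in Ier2, 0.07 to 0.26 in Egr1, 0.03 to 0.09 in Junb and 0.005 to 0.18 in Dusp1.

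**Figure D5:**
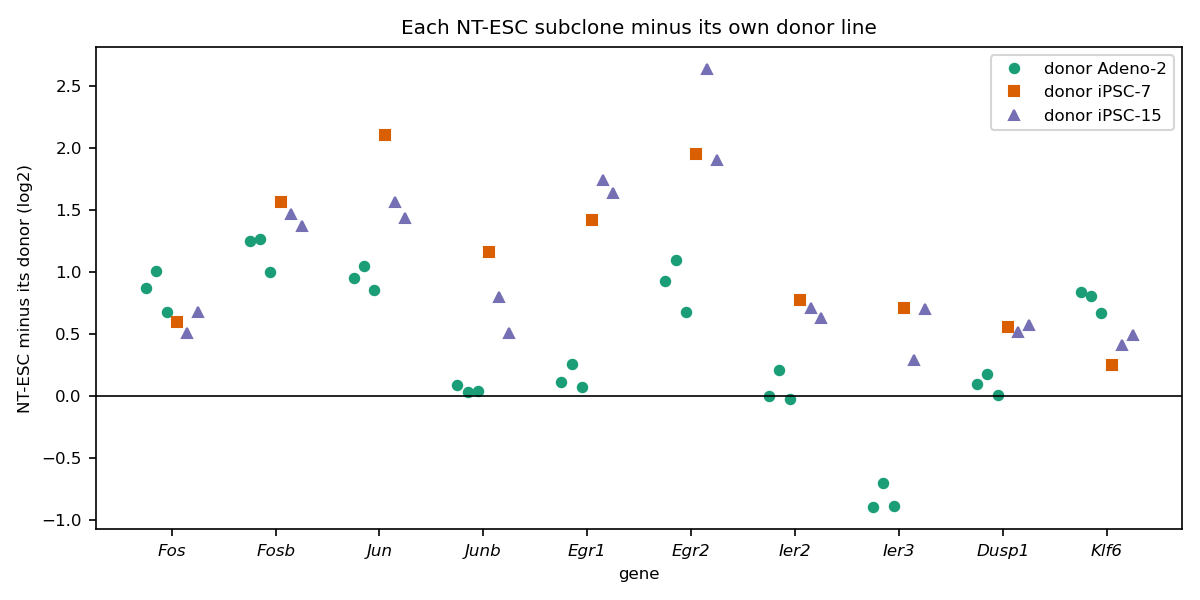
Each NT-ESC subclone minus its own donor line (log2, vertical axis) for the 10 genes (horizontal axis), with symbols for the donor. All 6 points lie above 0 for 8 genes, and the Adeno-2 family lies between 0 and 0.26 in Junb, Egr1 and Dusp1 and at -0.90 to -0.70 in Ier3.

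The Adeno-2 family and the blood-donor lines read differently in several genes. Egr1 exceeded its donor by 0.07 to 0.26 in the Adeno-2 family and by 1.42 to 1.74 in NT-7, NT-8 and NT-9, whose arrays stood apart. Junb did so by 0.03 to 0.09 and by 0.51 to 1.16. Ier3 was below its donor by 0.70 to 0.90 in the Adeno-2 family, and NT-7, NT-8 and NT-9 were above theirs by 0.29 to 0.71. This difference between families was not tested. The fibroblast and feeder list averaged 0.50 to 0.54 in NT-4 to NT-6, against 2.06 in Adeno-2. It averaged 1.60 in NT-7 against 2.47 in iPSC-7, and 1.76 and 2.01 in NT-8 and NT-9 against 1.56 in iPSC-15. The heat shock list averaged 4.58 to 4.85 in the 6 NT-ESC, 4.49 to 4.61 in the 3 donors and 4.29 to 4.48 in ESC. The part of these lists in the results on NT-ESC was not tested.

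Against ESC, the NT-ESC lines had 0 of the 10 genes called by limma and 1 gene in all (0.00847%), with 2074 genes, Ier3 and Klf6 among them, at an unadjusted p under 0.05. Fos differed by -0.17 (95% interval -0.49 to 0.14) and Fosb by -0.15 (95% interval -0.65 to 0.35). With NT-4 to NT-6 alone 2 of the 10 were lower, Fosb by -0.54 (adjusted p = 0.0233) and Ier3 by -1.20 (adjusted p = 0.0136), where 3.96% of all genes were called. In that fit Jun differed by -0.53, Egr1 by -0.22 and Junb by -0.06, against 0.11, 0.25 and 0.22 with all 6. 

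The probe sets of Klf6 went different ways in these lines. The brightest probe set read 4.64, 4.60 and 4.47 in NT-4, NT-5 and NT-6 and 4.11, 4.44 and 4.52 in NT-7, NT-8 and NT-9. A second probe set read 1.91, 1.90 and 1.68 in NT-4, NT-5 and NT-6, against 0.99 in Adeno-2. It read -2.0 in NT-7 against 0.98 in iPSC-7, and -1.56 and -0.96 in NT-8 and NT-9 against 1.24 in iPSC-15. The third read 1.72, 1.71 and 1.51 in NT-4, NT-5 and NT-6 and -1.49, -1.11 and 0.48 in NT-7, NT-8 and NT-9. The Klf6 direction in NT-7, NT-8 and NT-9 therefore depends on the probe set.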

How the data were processed

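RNA of 59 lines was measured on Affymetrix arrays, 1 per line. The authors deposited log2 intensities for 22626 probe sets, centred near 0 on each array. The log base and centring were inferred from the values (-4.83 to 6.97), and no source used here gives the background correction, summarisation or hybridisation batches. Probe sets were named through the platform's gene identifiers (18003 with 1 gene, 287 with several, 4336 with none) and symbols of GRCm38.p6, and the brightest probe set stood for each of 11807 genes. Tests used limma 3.58.1 in R 4.3.3 (lmFit, eBayes, 2-sided, Benjamini-Hochberg over all genes, threshold 0.05), and adjusted p-values in the text are from limma. Each clone counted as 1 unit, although clones of 1 animal share a source. Correlations used deviations from origin-group means. Fits were also run on simulated data with independent noise in each clone and no animal effect. Those runs do not cover clones that share an animal or genes that vary together. The members and lists were chosen with earlier results of these data known. Genes named outside the 10 were at most 4 per list, direction and comparison, by size of difference, and the 8 most alike. Alternatives covered normalization, a filter on low genes (40th percentile), probe set choice, eBayes settings, blocks, and leaving out clones, animals or families; fits without iPSC-32 were chosen after seeing the data. ESC share numbers with the MEF-derived clones, but deviations of same-numbered clones correlated at 0.04, 0.03, 0.23 and 0.51, so the numbers were not taken as pairs.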

Additional observations from a re-analysis of the deposited data

Results flagged for a closer look

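Of 80 checks of a single line against the rest of its group of 4 to 10 lines, 6 found a line far from the others, and chance gives about 1 in 20. In the GMP clones of mouse 2, iPSC-25 read 4.37 in Fos while the other 3 read 4.63 to 4.66. In the HSC clones of mouse 2, iPSC-21 read -0.36 in Fosb while the others read -0.61 to -0.59. ESC-1 lay apart in both Junb, at -0.28 with the others at -0.71 to -0.65, and Ier2, at 2.76 with the others at 2.12 to 2.15. The TTF clone iPSC-46 lay apart in Ier2, at 1.74 with the others at 2.17 to 2.29, and in Ier3, at 2.10 with the others at 0.66 to 1.05. The difference between blood-derived and fibroblast-derived clones varied between animals for Ier3, with a range of 0.64 over the 3 animals (limma interaction, adjusted p = 0.0322). Only chimera 2 had TTF clones and only the other animals PF clones, so animal and PF or TTF origin cannot be told apart there.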

How the results depend on the processing

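The 9 genes lower in other iPSC than in ESC numbered 8 or 9 when each ESC or each animal was left out. The 0 called between MEF-derived iPSC and ESC stayed 0 in the alternatives, and with the clone number as a replicate block it was 0, with 15 genes in all. Counts moved in the following, given here without the share of all genes in each fit. Any difference between origin cell types gave 2 genes with 1 mean for each animal and cell type, and 9 without iPSC-32. Blood minus fibroblast gave 3 on those means, 4 without mouse 1 and 3 without mouse 2. Its variation with animal gave 2 with low genes left out and 3 without iPSC-32. NT-ESC minus ESC gave 2 on NT-4 to NT-6 alone, and NT-ESC minus donor 0 without the donor block. Slopes on Fos gave 2 genes without mouse 2 and 1 without iPSC-32, and slopes on Egr1 3 without chimera 1. The median pairwise r was 0.85 within chimera 1, over 6 clones of 1 origin group and with no value over all gene pairs beside it. The cause was not tested.

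The following directions turned. In MEF-derived iPSC minus ESC, Dusp1 was 0.0092 with quantile normalization, and with the replicate block Dusp1 was 0.050, Fos 0.056 and Klf6 0.039. Leaving out 1 clone there gave -0.036 to 0.037 for Dusp1, -0.12 to 0.017 for Fos, -0.077 to 0.085 for Egr1, -0.14 to 0.18 for Egr2 and -0.037 to 0.31 for Jun. It gave -0.16 to 0.052 for Ier2 in other iPSC minus ESC and -0.047 to 0.26 for Jun in NT-ESC minus ESC. Blood minus fibroblast was 0.021 without mouse 1 and 0.0015 without chimera 2 for Ier2, and 0.21 without chimera 2 for Fosb. The Ier2 slope on Fos was -0.088 without mouse 1, -0.0025 without chimera 2 and -0.042 without group terms. In NT-4 to NT-6 minus ESC, Egr1 was -0.22, Jun -0.53 and Junb -0.060. In NT-ESC minus donor, Klf6 was -0.54 as the mean of its probe sets, and Ier3 -0.034 without the donor block and -0.83 in the Adeno-2 family. No detection calls were used, so signal over background is unknown, and how near a low value lies to background cannot be told.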
